A study of Mus musculus with 14 samples.

Results

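The carbonic anhydrases are described here in the livers of mice with diet-induced obesity (DIO), with Car3 as the leading gene. The set held 8 genes of the 25212 rows of the read count table: Car1, Car2, Car3, Car4, Car5a, Car8, Car9 and Car14. They were taken by symbol and were chosen by the level of Car3 in these same livers, so the values of Car3 are given as a description, with no test. RNA of 14 livers was sequenced, 1 library per liver, all from male C57BL/6 mice on the high-fat diet (HFD). The DIO group was 5 mice without surgery. In the GB-IL group (4 mice) the gallbladder was joined to the ileum and the common bile duct was tied, so that bile bypassed the upper intestine. The third group (5 mice) had Roux-en-Y gastric bypass (RYGB). The labels put the livers of operated mice at 8 weeks after surgery and give no age. All 3 groups shared the obesity before surgery and the diet. The DIO mice had no sham operation, so the operation, the change in bile flow and any difference in body weight or food intake between the groups cannot be told apart from these livers.

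Carbonic anhydrases catalyse the reversible hydration of carbon dioxide to bicarbonate and a proton. The family members differ in where they sit. Car1, Car2 and Car3 are cytosolic, Car5a is mitochondrial, and Car4, Car9 and Car14 are held at the cell membrane with the active site outside the cell. Car8 lacks a zinc ligand needed for catalysis and is known for binding the inositol trisphosphate receptor. In hepatocytes, mitochondrial bicarbonate feeds pyruvate carboxylase and carbamoyl phosphate synthetase, the entry steps of gluconeogenesis and the urea cycle. Car3 is a slow enzyme, very abundant in slow skeletal muscle, in adipocytes and in liver, and in rat liver it is more abundant in males than in females.

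Total counts ran from 18223135 to 28656631 per liver, and levels are given as CPM, the counts relative to a library total scaled between livers by edgeR's TMM method. The livers of GB-IL did not form 1 group: the first principal component, with 48.5% of the variance, put livers 1 and 2 at -134 and -106, liver 3 at -20.1 and liver 4 at 35.4, and DIO between 21.9 and 45.7. RYGB lay between -17.4 and 33.8. The summed hepatocyte markers (9 genes) were high in every liver, between 111394 and 158684 CPM. In bulk tissue, fewer cells of a type and less RNA per cell cannot be told apart.

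Car3 (chromosome 3, 14863512 to 14872523, plus strand, GRCm38, GENCODE M21) was among the most abundant transcripts of the DIO livers. Its level was 3030, 2761, 2642, 2190 and 2264 CPM in DIO livers 1 to 5, a mean of 2577 ± 350 CPM (SD, n = 5). It was 7.30, 7.74, 117 and 3431 CPM in GB-IL livers 1 to 4, and 873, 1957, 2299, 2242 and 225 CPM in RYGB livers 1 to 5. Thus 3 of 4 GB-IL livers lay below every DIO liver, and the fourth lay above every DIO liver. In RYGB, livers 1, 2 and 5 lay below every DIO liver, and livers 3 and 4 within the DIO range.

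As a percentage of the DIO mean, Car3 stood at 0.283% in GB-IL liver 1, 0.300% in liver 2, 4.54% in liver 3 and 133% in liver 4. In RYGB the lowest liver stood at 8.71% and the highest at 89.2%. The highest and the lowest liver differed 1.38-fold within DIO, 10.2-fold within RYGB and 470-fold within GB-IL. The raw counts of the lowest livers were 139 and 137, so even there Car3 rested on more than 100 reads, while GB-IL liver 4 had 93017. Per kilobase of exon, Car3 ranked between 53 and 78 in DIO among the 24701 genes with a known length. It ranked 7213 and 6827 in GB-IL livers 1 and 2, 1021 in liver 3 and 46 in liver 4. In RYGB liver 5 it ranked 442.

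**Figure D1:**
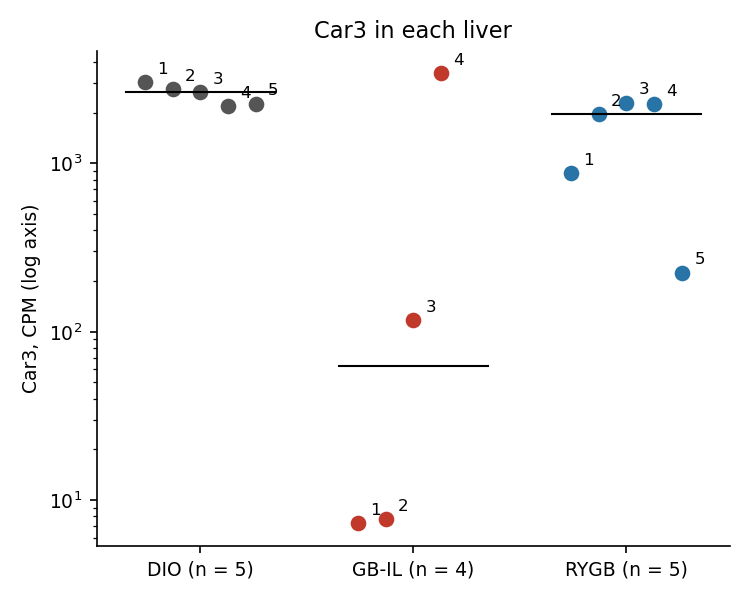
Car3 in each liver, in CPM on a log axis, for DIO, GB-IL and RYGB; points are livers numbered as in the labels and the bars are group medians (2642, 62.4 and 1957 CPM). The DIO livers lie within 1.38-fold of each other, whereas the GB-IL livers run from 7.30 to 3431 CPM.

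How large the group difference of Car3 appears depends on how livers are averaged. The GB-IL mean of 891 ± 1694 CPM (SD, n = 4) came almost entirely from liver 4, and the edgeR fit, which compares group means, gave a log2 fold change of -1.53 (SE 1.27) against DIO. The difference of the mean log2 levels was -5.21. Without GB-IL liver 4 the fitted log2 fold change was -5.87, and without GB-IL livers 1 and 2 together it was -0.54. In RYGB the mean was 1519 ± 924 CPM (SD, n = 5), with a fitted log2 fold change of -0.76 (SE 1.16) and a difference of mean log2 levels of -1.16. The direct fit of GB-IL against RYGB gave -0.77 (SE 1.24), and 0.21 without GB-IL livers 1 and 2.

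The spread of Car3 differed between the groups. Its SD of log2 CPM was 4.19 within GB-IL, the fifth largest of the 14252 genes tested (rank 5), against a median of 0.57 over these genes. Within RYGB the SD was 1.43 (rank 169, median 0.30). Within DIO it was 0.20 (rank 10761, median 0.29), so Car3 was one of the steadier genes among the unoperated mice. Because Car3 chose the set, these ranks are a description of the livers used to choose it.

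Car3 also dominated the family total. Of the summed CPM of the 16 carbonic anhydrase genes in the table, Car3 held between 90.4% and 94.6% in the DIO livers. In GB-IL livers 1 to 4 it held 16.0%, 16.3%, 48.5% and 94.4%. In RYGB it held 81.8% in liver 1, 64.6% in liver 5 and 92.1% to 92.9% in the others. Per kilobase of exon the DIO levels were 900 ± 122 CPM for Car3, 52.2 ± 11.2 for Car5a, 21.4 ± 5.06 for Car8 and 19.3 ± 7.23 for Car14 (SD, n = 5). Car1 stood at 2.69 ± 1.06 and Car2 at 2.02 ± 1.23 CPM per kilobase. Car3 was thus 17.2-fold above Car5a, the next in order, whereas Car8 and Car14 differed by less than their SD, as did Car1 and Car2.

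Cell types other than hepatocytes that are rich in Car3 were followed by marker lists. Skeletal muscle markers (11 genes) summed to 2171 CPM in GB-IL liver 1 and to between 0.745 and 3.85 CPM in the other 13 livers. That list held fast-fibre genes and genes of all skeletal muscle but no slow-fibre myosin, so slow fibres were not followed on their own. GB-IL liver 1, with muscle Acta1 at 606 CPM, had the lowest Car3 of all. Adipoq, Lep and Plin1, which define adipocytes, summed to 3.95 CPM in GB-IL liver 4, the liver with the highest Car3, and to 0.263 CPM or less in each of the others. The sum of the whole adipocyte list (10 genes), most of it Pck1, which hepatocytes express too, went the other way: it was lowest in GB-IL liver 4 among the GB-IL livers, at 2905 CPM against 3849 to 5255, and Fabp4 was also lowest there (18.4 CPM against 27.1 to 49.9). Cfd (11.5 CPM) and Retn (0.369 CPM, 10 counts) were highest of all livers in GB-IL liver 4. Cidec was 31.9 CPM there, below GB-IL liver 1 (39.4 CPM) and above every DIO and RYGB liver. Adrb3 and Lipe lay within the range of the other GB-IL livers. The sum of the whole list ran from 1584 to 3244 CPM in DIO and from 1920 to 3849 in RYGB. The part of these cells in the Car3 values was not tested.

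Car5a (chromosome 8, 121916126 to 121944904, minus strand), the mitochondrial enzyme that supplies bicarbonate to hepatic carboxylases, followed the same order of livers within GB-IL. It stood at 46.5, 63.4, 76.5, 81.5 and 81.6 CPM in DIO livers 1 to 5, and at 3.15, 5.42, 38.5 and 57.8 CPM in GB-IL livers 1 to 4. GB-IL livers 1 to 3 lay below every DIO liver. RYGB livers 1 to 5 stood at 61.8, 41.6, 43.9, 43.4 and 16.1 CPM, with 4 of 5 below every DIO liver. Tested by edgeR's quasi-likelihood fit across all genes, the log2 fold change was -1.41 (SE 0.65, adjusted p = 0.207) for GB-IL and -0.76 (SE 0.59, adjusted p = 0.744) for RYGB against DIO.

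Car14 (chromosome 3, 95897768 to 95904691, minus strand), a transmembrane enzyme facing outward, was 29.5, 39.2, 41.5, 59.8 and 75.5 CPM in DIO livers 1 to 5. In GB-IL livers 1 to 4 it was 8.93, 9.09, 30.2 and 41.1 CPM, so that livers 1 and 2 were below every DIO liver and livers 3 and 4 within the DIO range. The log2 fold change for GB-IL against DIO was -1.13 (SE 0.42, edgeR adjusted p = 0.134). RYGB lay between 26.1 and 37.8 CPM, with a log2 fold change of -0.63 (SE 0.38, edgeR adjusted p = 0.672). Car14 passed in RYGB only by limma's voom with sample quality weights (log2 fold change -0.88, adjusted p = 0.0327), a setting that called 11.9% of all genes tested in that comparison.

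Car8 (chromosome 4, 8143362 to 8239041, minus strand), the catalytically inactive member, was 86.3, 115, 72.5, 65.4 and 73.5 CPM in DIO. GB-IL livers 1 to 4 had 17.1, 17.8, 46.1 and 92.4 CPM, and again the first 3 lay below every DIO liver. The log2 fold change was -0.93 (SE 0.41, edgeR adjusted p = 0.198). RYGB livers 1 to 4 had 80.8 to 90.9 CPM and liver 5 had 53.6 CPM, the only RYGB liver below the DIO range. The RYGB mean, 80.9 ± 15.8 CPM (SD, n = 5), lay close to the DIO mean of 82.5 ± 19.5, with a log2 fold change of -0.03 (SE 0.38) that turned positive with unscaled library totals (0.03) and with voom (0.18).

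Printed for the pair of tested members that have an entry in the RefSeq promoter table (GRCm38.p6), which covers 4 of the 8 members, the 250 bases before the transcription start show where these genes begin, 5′ to 3′ on the gene's strand. The Car5a stretch is chr8:121944913-121945162 and the Car14 stretch chr3:95904686-95904935, both on the minus strand, and capitals mark the motif matches found.
Car5a: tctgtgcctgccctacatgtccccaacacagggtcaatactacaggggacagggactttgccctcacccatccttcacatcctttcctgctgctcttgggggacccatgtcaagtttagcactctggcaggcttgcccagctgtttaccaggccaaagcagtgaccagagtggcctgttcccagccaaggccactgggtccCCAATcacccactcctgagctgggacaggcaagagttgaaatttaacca
Car14: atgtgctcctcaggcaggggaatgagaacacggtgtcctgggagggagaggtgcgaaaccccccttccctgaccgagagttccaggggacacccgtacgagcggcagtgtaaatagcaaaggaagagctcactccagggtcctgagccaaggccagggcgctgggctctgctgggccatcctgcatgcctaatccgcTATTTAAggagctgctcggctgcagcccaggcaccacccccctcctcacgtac
The motifs searched on both strands were the TATA box TATAAA and its variant TATTTAA, the CCAAT box, the STAT5 motif TTCNNNGAA and the HNF1 half-site GTTAAT. The first of these to match, CCAAT (bound by NF-Y), was found once for Car5a, starting 49 bases before the start, and 33.8% of 32851 such promoters hold a match. TATTTAA was found once for Car14, starting 53 bases before the start, and 4.18% of promoters hold it. The other motifs had no match in either window, and these matches are a description of letters, not of bound sites.

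Car1 and Car2, the cytosolic enzymes best known from red cells, were low in these livers. Car1 (chromosome 3, 14766216 to 14808368, minus strand) had 50, 100, 91, 35 and 55 counts in DIO livers and 0, 3, 9 and 84 counts in GB-IL livers 1 to 4. A count of 0 in GB-IL liver 1 allows up to 3 counts, or 0.158 CPM, by counting error alone. DIO lay between 1.98 and 4.92 CPM, so GB-IL livers 1 to 3, at 0.382 CPM or less, lay below every DIO liver. The log2 fold change for GB-IL against DIO was -1.82 (SE 0.84, edgeR adjusted p = 0.210). RYGB lay between 1.97 and 3.98 CPM except for liver 5, at 0.623 CPM. Car1 reached the filter on low counts in every DIO and RYGB liver but in 1 of 4 GB-IL livers, so it entered the test through the groups in which it is higher, and its test is no independent support for a lower level in GB-IL.

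Car2 (chromosome 3, 14886273 to 14900770, plus strand) was 3.09, 7.53, 8.70, 2.55 and 2.55 CPM in DIO livers 1 to 5. It was 4.47, 3.95, 4.20 and 3.02 CPM in GB-IL, all 4 within the DIO range, and 8.04, 2.71, 3.20, 2.56 and 8.83 CPM in RYGB. Its log2 fold changes against DIO were -0.32 (SE 0.47, edgeR adjusted p = 0.677) for GB-IL, which turned positive with voom (0.25), and 0.05 (SE 0.44, edgeR adjusted p = 0.980) for RYGB. DIO livers 2 and 3 and RYGB livers 1 and 5, where Car2 was highest, had summed erythroid markers (8 genes) of 2308, 1311, 951 and 1833 CPM, beside 114 to 196 CPM in the other RYGB livers and 258 and 365 CPM in DIO livers 5 and 4. The order did not hold throughout, since DIO liver 1 had 1251 CPM of these markers with Car2 at 3.09 CPM and GB-IL liver 2 had 1929 CPM with Car2 at 3.95 CPM. Cholangiocyte markers, of a cell type that also uses Car2, summed (8 genes) to 324, 270, 220 and 67.7 CPM in GB-IL livers 1 to 4 and to 34.4 to 67.4 CPM in DIO. Much of the sum was Spp1, at a mean of 189 CPM in GB-IL and 36.9 CPM in DIO. Of the 7 tested markers of this list, 6 were higher and 1 lower in GB-IL than in DIO. Their part in the level of Car2 was not tested.

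Car1, Car3 and Car2 lie side by side on chromosome 3, with Car13 beyond Car1, in a stretch of 259 kb. Car3 and Car2 are 13.7 kb apart and are transcribed in the same direction. In GB-IL livers 1 and 2, Car3 was at 7.30 and 7.74 CPM against a DIO mean of 2577, whereas Car2 was at 4.47 and 3.95 against 4.88 ± 2.99 CPM (SD, n = 5). Car13, the cytosolic neighbour at the far end, went the other way. It was 0.314, 0.394, 0.153, 0.339 and 0.144 CPM in DIO livers 1 to 5 and 1.42, 0.734, 1.15 and 0.553 CPM in GB-IL livers 1 to 4, with no overlap (4.17% of all genes in either direction). On 3 to 8 counts per DIO liver and 13 to 27 per GB-IL liver, Car13 had a log2 fold change of 1.82 (SE 0.41, edgeR adjusted p = 0.0323). It reached the filter on low counts in 0 of 5 DIO livers and in all 4 GB-IL livers, so it entered the test through the groups in which it is higher; without the filter its adjusted p was 0.0427. Of the 22 alternatives its adjusted p ran from 0.00484 to 0.178, and it missed the threshold in 10 of them, among them without GB-IL liver 1 (0.0952), without GB-IL liver 2 (0.0588) and without any single DIO liver (0.0716 to 0.0959). In RYGB it was 0.345 to 0.865 CPM (log2 fold change 1.20, SE 0.39, edgeR adjusted p = 0.453).

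**Figure D2:**
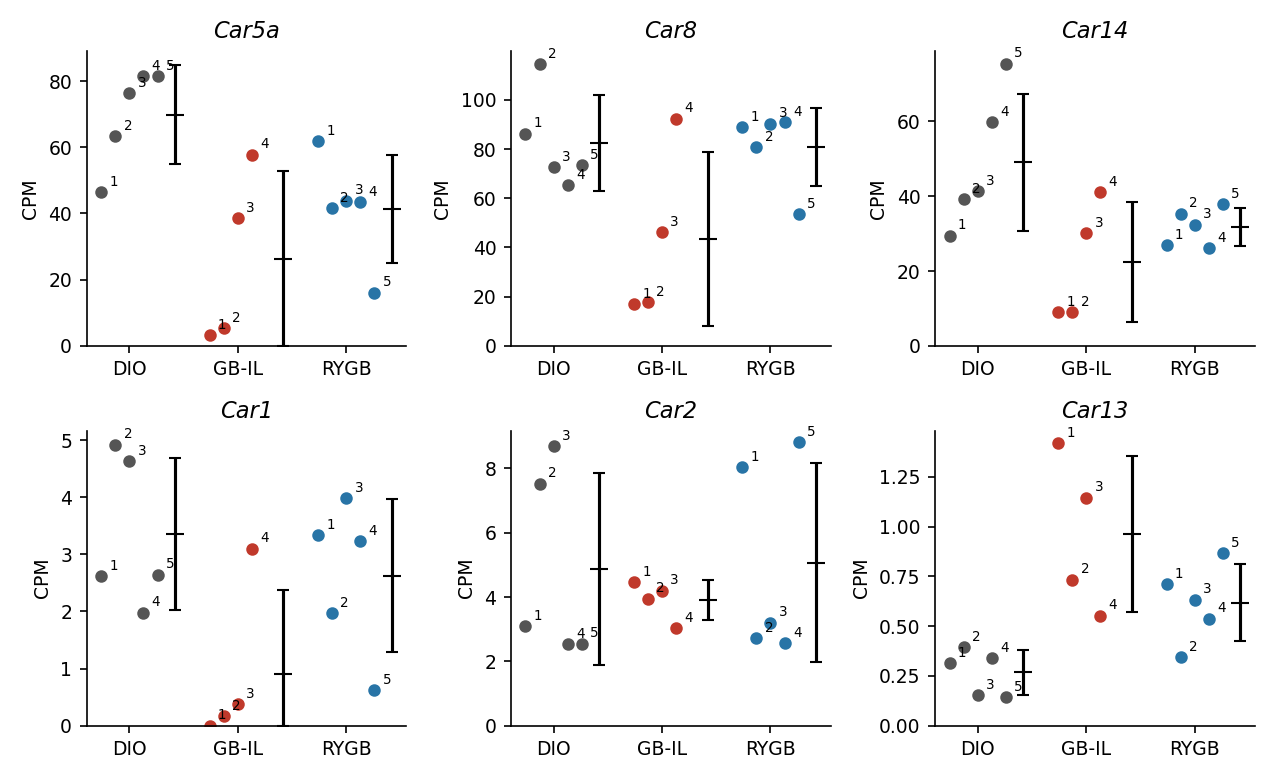
CPM of Car5a, Car8, Car14, Car1, Car2 and Car13 in each liver by group; points are livers numbered as in the labels, and bars give the mean and SD, with the lower end stopped at 0. Car5a, Car8, Car14 and Car1 are lowest in GB-IL livers 1 and 2, Car2 is not, and every GB-IL liver lies above the DIO livers for Car13.

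Car4 and Car9, both membrane enzymes, were below the filter on low counts. Car4 (chromosome 11, 84957786 to 84966044, plus strand) had 1 count over all 5 DIO livers, 23 over the GB-IL livers (16, 4, 3 and 0 in livers 1 to 4) and 23 over the RYGB livers, of which 19 were in liver 5. Relative to total counts, the rate in GB-IL was 25.0 times that in DIO (exact Clopper-Pearson 95% interval 4.07 to 1031), an interval that covers counting error only. Between livers, the exact two-sided permutation test gave p = 0.0952 (0.440 after Benjamini-Hochberg adjustment over 6 tests) for GB-IL and p = 0.167 (adjusted 0.440) for RYGB against DIO. Car9 (chromosome 4, 43506966 to 43513729, plus strand), a classical target of the hypoxia-inducible factors, had 16, 28 and 28 counts over DIO, GB-IL and RYGB. The rate in GB-IL was 1.90 times that in DIO (95% interval 0.996 to 3.77), and the exact permutation test gave p = 0.254 (adjusted 0.440). Of the 10 hypoxia response genes, 5 were higher in RYGB than in DIO at an unadjusted p under 0.05, where 8.71% of all genes differed in either direction, and the list's median was 0.75 on the log2 scale. In GB-IL against RYGB, 3 of the 10 were lower at an unadjusted p under 0.05 (22.1% of all genes in either direction) and 2, Egln3 and Vegfa, without overlap (2.84%). In GB-IL against DIO, 1 was higher and 1 lower at that p, with a median of -0.01. The summed list was 2601 CPM in RYGB liver 5, which had 10 of the 28 RYGB counts of Car9 (0.346 CPM), and 1249 to 1955 CPM in all other livers. Car9 was higher in GB-IL livers 3 and 4 (0.509 and 0.406 CPM) and DIO liver 3 (0.356 CPM), where the sums were 1336, 1445 and 1636 CPM. None of the 10 hypoxia response genes passed after edgeR's adjustment (smallest adjusted p 0.103, 0.479 and 0.136 in GB-IL against DIO, RYGB against DIO and GB-IL against RYGB).

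Over the set, 6 of the 8 members passed the filter and 5 were tested, since Car3 was not. None of the 5 passed an FDR of 0.05 in GB-IL against DIO, where 3.26% of all genes were called, nor in RYGB against DIO or GB-IL against RYGB, where 0% were. Of these, Car2, Car5a, Car8 and Car14 reached the filter in every liver and Car1 did not. At an unadjusted p under 0.05, 3 of those 4 were lower in GB-IL than in DIO (23.1% of all genes in either direction), 0 of 4 differed in RYGB against DIO (8.71%) and 1 of 4, Car8, in GB-IL against RYGB (22.1%). DESeq2 called 0 of the members in all 3 comparisons. No tested member had groups without overlap in GB-IL against DIO (4.17% of all genes), RYGB against DIO (3.53%) or GB-IL against RYGB (2.84%). The median log2 fold change of the 4 was -1.03 for GB-IL and -0.33 for RYGB against DIO, beside 0.04 and 0.01 over all genes. In the 2 comparisons with DIO the same 5 control livers were used. Markers of other cells also differed in GB-IL, where 4 of 7 tested cholangiocyte markers and 3 of 7 macrophage markers rose against DIO in the same fit. The macrophage markers summed to 640, 1076, 2235 and 804 CPM in GB-IL livers 1 to 4 and to 388 to 690 CPM in DIO, and endothelial markers (8 genes) to 263 to 378 and 248 to 333 CPM. In RYGB the endothelial sum was 226 to 373 CPM in livers 1 to 4 and 619 CPM in liver 5, the liver with 19 of the 23 RYGB counts of Car4. Their part in the members' levels was not tested.

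Whether members passed turned on GB-IL liver 4, which lay within the DIO range on the first principal component and which no label sets apart from the other GB-IL livers. Every GB-IL mean above includes it. Without it, Car5a (log2 fold change -2.15, edgeR adjusted p = 0.0319), Car8 (-1.61, 0.00543) and Car14 (-1.61, 0.0136) fell below DIO, 3 of the 4 members that reached the filter in every liver, in a fit that called 24.6% of all genes. In GB-IL against RYGB, Car8 (-1.59, edgeR adjusted p = 0.00929) passed without this liver, where 21.5% of all genes did. The log2 fold change of Car1, on 0, 3 and 9 counts in the remaining GB-IL livers, was -4.09 against DIO and -3.74 against RYGB, given as a description because of the filter. Without GB-IL livers 1 and 2 instead, no member passed in fits that called 0% of all genes, and Car5a and Car14 turned slightly positive against RYGB (0.21 and 0.15). No member passed when any of the other livers was left out singly.

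**Figure D3:**
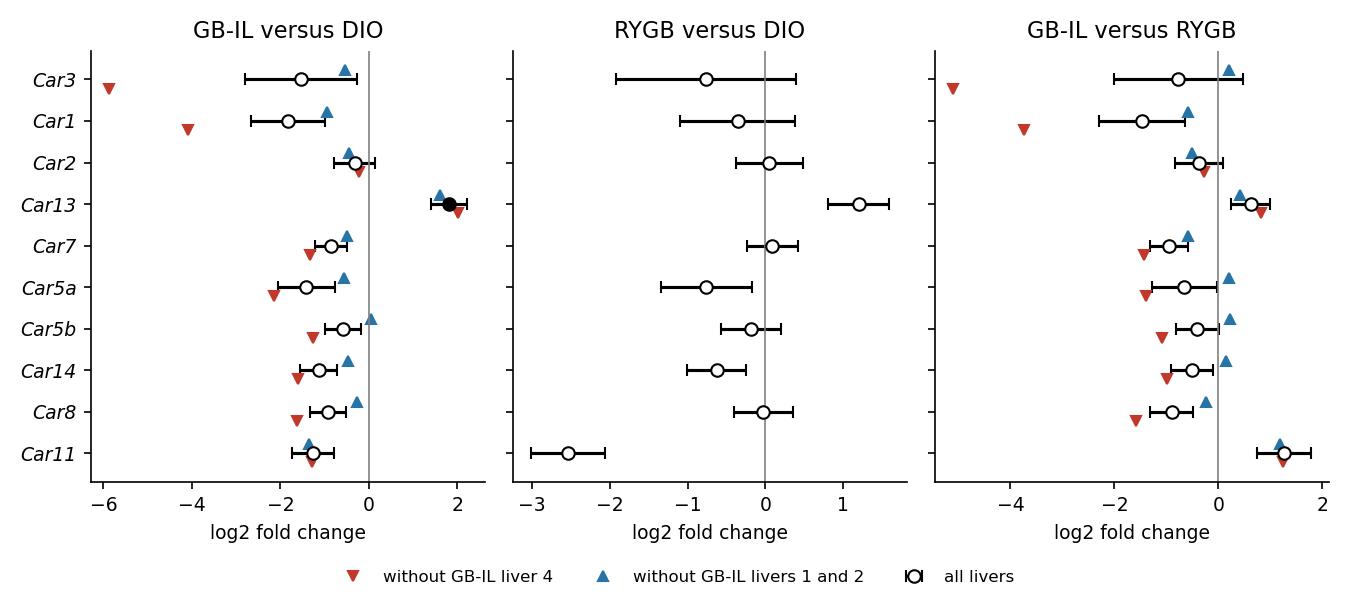
Log2 fold changes of the 10 family genes that passed the filter on low counts, in the 3 comparisons; circles with bars are the edgeR estimate and its SE over all livers (filled where the adjusted p passed 0.05, Car3 not tested), red triangles the estimate without GB-IL liver 4 and blue triangles that without GB-IL livers 1 and 2. Car3 moves from -1.53 to -5.87 or -0.54 in GB-IL against DIO, whereas Car2, Car11 and Car13 stay near their first value.

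The 8 other family genes were low throughout. Car5b, the second mitochondrial isozyme, was 3.21 ± 0.879 CPM in DIO (SD, n = 5), 2.11 ± 1.70 in GB-IL (n = 4) and 2.83 ± 0.420 in RYGB (n = 5), with 0.946 and 0.791 CPM in GB-IL livers 1 and 2 and 4.46 CPM in liver 4. Car7, a cytosolic enzyme, was 1.13 ± 0.338, 0.610 ± 0.344 and 1.21 ± 0.241 CPM in DIO, GB-IL and RYGB. Neither passed (edgeR adjusted p = 0.383 and 0.178 for GB-IL against DIO). Car7 reached the filter on low counts in every DIO and RYGB liver but in 1 of 4 GB-IL livers, so it entered the test through the groups in which it is higher. Car11, which like Car8 lacks enzyme activity, was 0.576 to 1.73 CPM in DIO, 0.424 to 0.525 in GB-IL and 0.0346 to 0.414 in RYGB, without overlap between any of the groups. Of all genes, 4.17% did not overlap in GB-IL against DIO, 3.53% in RYGB against DIO and 2.84% in GB-IL against RYGB. Its raw counts were 11 to 36 in DIO, 8 to 13 in GB-IL and 1 to 10 in RYGB, so those of GB-IL overlapped both other groups. It reached the filter in every DIO liver, 1 of 4 GB-IL and 0 of 5 RYGB livers, so it too entered the test through the group in which it is higher. For RYGB against DIO its log2 fold change was -2.54 (SE 0.48) with an edgeR adjusted p of 0.218, below which no gene fell in that comparison. It passed by DESeq2 (adjusted p = 0.00143) and by voom (0.00741), which called 11.9% of all genes tested there. Because of the filter, these tests of Car11 are no independent support for a lower level in RYGB. Car6, Car10, Car12 and Car15 were below the filter, with at most 21 counts in any group, and Car12 had counts in GB-IL liver 1 alone (7).

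Enzymes that use bicarbonate were followed as a list. None of the 8 (carbamoyl phosphate synthetase, pyruvate carboxylase, the acetyl-CoA, propionyl-CoA and methylcrotonyl-CoA carboxylase subunits) passed in any comparison, and their median log2 fold change was -0.49 for GB-IL and -0.36 for RYGB against DIO. The smallest p-values were those of Pccb, a propionyl-CoA carboxylase subunit (180 CPM in DIO, 119 in GB-IL, log2 fold change -0.59, SE 0.25, edgeR adjusted p = 0.184), and Mccc1, of methylcrotonyl-CoA carboxylase (57.9 and 38.8 CPM, -0.58, SE 0.27, adjusted p = 0.219). Of 10 bicarbonate and proton transporters, 8 were tested and 0 passed. In GB-IL against DIO, Slc4a3 (0.502 CPM in DIO, 1.39 in GB-IL, log2 fold change 1.44, SE 0.49, edgeR adjusted p = 0.110) and Slc4a8 (1.00 and 2.49 CPM, 1.29, SE 0.53, adjusted p = 0.170), both anion or bicarbonate carriers at low levels, had the smallest p-values. Slc4a8 turned to -0.37 without GB-IL livers 1 and 2. Without GB-IL liver 4, where 24.6% of all genes were called, Pccb (edgeR adjusted p = 0.0303), Mccc1 (0.0123), Slc4a3 (0.0189) and Slc4a8 (0.0155) passed against DIO, and Slc4a8 also passed against RYGB (0.0148).

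A list of 12 genes was followed because Car3 is higher in male than in female rat liver. Most of them are higher in male mouse liver, whereas Ghr, Stat5b and Igf1 belong to growth hormone signalling. All 12 had a negative log2 fold change in GB-IL against DIO, with a median of -2.13, and 7 of 12 a positive one in RYGB (median 0.14). In GB-IL against DIO those of Ghr, Stat5b and Igf1 were -1.02, -0.63 and -0.04. None of the 12 passed in either comparison or in GB-IL against RYGB. Their summed level was 3754 to 8518 CPM in DIO, and 1383, 1043, 2288 and 3206 CPM in GB-IL livers 1 to 4. In RYGB it was 1715 CPM in liver 1 and 1494 CPM in liver 5 but 7185 to 7377 CPM in the other 3, and livers 1 and 5 were also those with the lowest Car3. In GB-IL liver 4, however, the sum was below every DIO liver while Car3 was above them all. Much of the sum was Mup20, at 1295 CPM in that liver and 1823 to 4591 CPM in DIO. Mup20, Cyp7b1, Stat5b and Igf1 lay below every DIO liver there, and the other listed genes lay within the DIO range. The sums also held 399 to 522 CPM of Igf1 in GB-IL and 429 to 492 CPM in DIO. Hsd3b5, a male-specific steroid enzyme, varied from 0.712 to 119 CPM within DIO itself (GB-IL 0.226 to 7.00 CPM, log2 fold change -4.08, SE 1.45, edgeR adjusted p = 0.123), and passed by DESeq2 (0.0248). Cyp7b1, the oxysterol hydroxylase, was 75.5 to 247 CPM in DIO, 17.7 to 82.1 in GB-IL and 46.1 to 457 in RYGB (GB-IL against RYGB, log2 fold change -2.12, SE 0.60, edgeR adjusted p = 0.101). In GB-IL against RYGB, Cyp7b1 passed by DESeq2 (adjusted p = 0.00725) and by edgeR without GB-IL liver 4 (0.0335), and so did Hsd3b5 (0.00139 and 0.0408).

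The genes whose level followed Car3 most closely were found by Pearson's r of log2 CPM over the 14 livers, among 7744 other genes that averaged 10 CPM or more. The 5 highest were Ces1f (r = 0.993, Spearman's rank correlation 0.947), Mme (0.981, 0.969), Ces1e (0.979, 0.912), Ugt2b1 (0.977, 0.771) and Ugt1a6a (0.977, 0.903). Ces1f and Ces1e are carboxylesterases, Ugt2b1 and Ugt1a6a glucuronosyltransferases, and Mme the membrane peptidase neprilysin. The lowest were Mmp7, a matrix metalloproteinase (-0.982, -0.956), and Gpx3, a secreted glutathione peroxidase (-0.982, -0.886). Mmp7 averaged 10 CPM only through GB-IL livers 1 and 2, at 43.5 and 245 CPM, where Car3 was lowest. An inverse relation was thus favoured by the cutoff, which Mmp7 would not have met without those livers. All points share 3 groups and the GB-IL livers that stand apart, and 356 genes had an r of at least 0.9 and 191 one of -0.9 or below.

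Without GB-IL livers 1 and 2, the farthest from the median of Car3, r was 0.975 for Ces1f, 0.911 for Mme, 0.937 for Ces1e, 0.920 for Ugt2b1 and 0.890 for Ugt1a6a, and -0.978 and -0.918 for Mmp7 and Gpx3. Ces1f was 320 to 519 CPM in DIO and 2.26, 3.39, 21.1 and 465 CPM in GB-IL livers 1 to 4. In RYGB it was 262 to 315 CPM except for 56.1 CPM in liver 5. Mmp7 ran the other way, at 0.385 CPM or less in DIO, 43.5, 245, 4.37 and 0.111 CPM in GB-IL livers 1 to 4, and 1.15 and 2.49 CPM in RYGB livers 1 and 5. Among the members, r with Car3 was 0.960 for Car8, 0.953 for Car1, 0.923 for Car5a, 0.830 for Car14 and -0.18 for Car2. Without GB-IL livers 1 and 2 these were 0.801, 0.891, 0.632, 0.252 and -0.37, so that the likeness of Car14 rested on those livers.

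**Figure D4:**
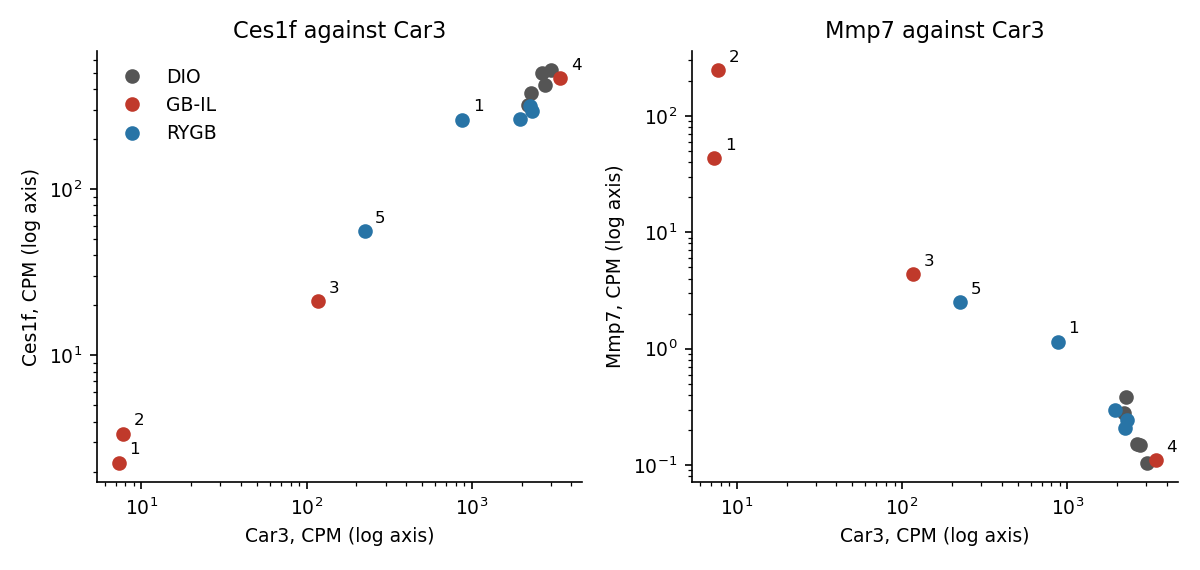
Ces1f (left) and Mmp7 (right) against Car3 in the 14 livers, in CPM on log axes; points are livers coloured by group, with the GB-IL livers and RYGB livers 1 and 5 numbered. Ces1f falls with Car3 down to 2.26 CPM in GB-IL liver 1, and Mmp7 reaches 245 CPM in GB-IL liver 2.

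Some members share their position with other genes, and the strand setting of the counting is not given in the sources used here. Car14 overlaps Aph1a on the opposite strand (20.9 to 38.4 CPM over all livers) and Car5a overlaps the noncoding BC048644 (0 to 3.76 CPM). Car9 overlaps the antisense Gm12454, with 26, 19 and 18 counts in DIO, GB-IL and RYGB, about as many as Car9 itself, so the reads of this pair cannot be told apart if strand was not used.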

How the data were processed

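The deposited values are whole counts per gene. They were made by the authors from amplified total RNA run on an Illumina HiSeq, with TopHat2 alignment to mm10 and HTSeq counting, and hold no normalization. Tool versions, annotation and strand use: not given in the sources used here. In the labels 2 stranded kits appear, tied to no liver. Nothing says more of the replicates than that they are separate livers.

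Counts were filtered (filterByExpr by group), scaled by TMM and fitted in edgeR 4.0.16 (R 4.3.3; limma 3.58.1, DESeq2 1.42.0) by a quasi-likelihood model with 1 mean per group over all 14 livers, with Benjamini-Hochberg adjustment over 14252 genes at an FDR of 0.05. CPM use the filtered library total times its TMM factor; log2 CPM have a prior count of 2. Exact permutation tests and intervals used scipy 1.17.1, on counts per total count. On simulated counts over 14252 genes with 200 changed (log2 fold change of 2 either way), the fit found 164 (GB-IL against DIO, 6 false calls), 181 (RYGB against DIO, 6 false) and 160 (GB-IL against RYGB, 4 false). In the sequenced livers the median SD of log2 CPM was 0.57 within GB-IL, 0.29 within DIO and 0.30 within RYGB. Recovery in a group split as the GB-IL livers were was not tested.

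The members and lists were chosen with earlier results of these data known. Genes named are the members, the other family genes, the genes of 3 lists (bicarbonate enzymes, transporters, male-biased) past the FDR or else the 2 of smallest p, and the 5 genes most and 3 least like Car3 at a mean of at least 10 CPM, of which 1 is not reported here; Adipoq, Lep, Plin1, Pck1, Fabp4, Egln3, Vegfa, Acta1, Aph1a, BC048644 and Gm12454 stand outside that rule. Alternatives were RLE scaling, no scaling, DESeq2, voom, no filter, a block for the replicate number, a fit without the third group and each liver left out. Leaving out GB-IL livers 1 and 2 together was chosen after seeing the data.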

Additional observations from a re-analysis of the deposited data

Results flagged for a closer look

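Of 39 groups of CPM values (13 family genes with at least 20 counts in all, 3 groups each), 5 held a liver whose gap to the nearest other liver passed Dixon's 95% limit. Chance gives about 1 in 20 for independent groups, but these groups share livers and include Car3, which chose the set. The 5 are therefore a description and are not weighed against chance. Car3 at 3431 CPM and Car1 at 3.10 CPM in GB-IL liver 4 stood above the other GB-IL livers. Car8 in RYGB liver 5, at 53.6 CPM, stood below the other RYGB livers. Car4 in RYGB liver 5, at 0.658 CPM (19 counts), stood above the others. Car4 in DIO liver 5, at 0.0481 CPM, is 1 count beside livers at 0, a gap that passes the limit by construction.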

How the results depend on the processing

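The number of tested members called ran from 0 to 4 in GB-IL against DIO and from 0 to 2 in GB-IL against RYGB over the livers left out singly, the highest without GB-IL liver 4 (both counts include Car1, which entered through the filter on low counts in the groups where it is higher); in RYGB against DIO voom called 1 member, Car14. With the replicate number as a block, 0 members passed in all 3 comparisons, and 1, 0 and 0 of all genes did in GB-IL against DIO, RYGB against DIO and GB-IL against RYGB. The numbers do not pair the livers: deviations of same-numbered livers from their group means correlated between -0.38 and 0.0081, -0.23 and 0.021, and 0.0078 and 0.38, and of 4 GB-IL livers 0 correlated best with their own number in DIO and 1 in RYGB. Counts over all genes moved more than the members: 465 in GB-IL against DIO became 1292 by DESeq2, 0 with the 2 groups only and 0 to 3572 with 1 liver left out; the 0 of RYGB against DIO became 97 by DESeq2, 1690 by voom and 33 with the 2 groups only; and the 0 of GB-IL against RYGB became 845 by DESeq2, 115 by voom and 51 without the filter.

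For Car3 against DIO in GB-IL, voom gave -4.39 and the block -5.06. Directions turned for small values. Car2 in GB-IL became 0.25 against DIO and 0.18 against RYGB by voom. In RYGB against DIO, leaving out 1 liver moved Car2 between -0.24 and 0.36, Car8 between -0.10 and 0.13, Car7 between -0.036 and 0.25 and Slc4a8 between -0.31 and 0.033; Car8 became 0.035 without scaling and 0.18 by voom, and Car5b 0.084 by voom. Without GB-IL livers 1 and 2 together, Car5b became 0.053 and Slc4a8 -0.37 against DIO, and Car3 0.21, Car5a 0.21, Car14 0.15, Car5b 0.23, Pccb 0.095, Mccc1 0.33, Slc4a3 -0.52 and Slc4a8 -0.25 against RYGB. Leaving out 1 liver moved Mccc1 between -0.49 and 0.060 in that comparison. The cause was not tested. Counts under 30 per group limit Car4 and Car9.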
